A study of Mus musculus with 3 samples.

Results

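Wnt11 is 1 of 125 genes counted by a targeted single-cell RNA panel in mouse bone marrow, and the cells that hold it were selected on 1 value, its error-corrected molecules summed per cell. At least 1 Wnt11 molecule was counted in 29 of 4038 cells of the E18.5 EC library, in 537 of 12844 cells of the E18.5 BM library and in 742 of 7939 cells of the Adult BM library. All 3 libraries came from C57/B6 wildtype mice. E18.5 EC are endothelial cells sorted from fetal marrow on the surface marker CD31, with endomucin also named in the design text. The other libraries, E18.5 BM cells (here fetal marrow) and Adult BM cells (here adult marrow), are cells of E18.5 and adult femur. Mature blood cells were removed from both with lineage antibodies on magnetic beads. For its whole-transcriptome libraries the paper describes further depletion rounds in adult marrow only, also against the pan-leukocyte marker Ptprc. For the targeted libraries it names only lineage-negative cells, so the depletions may have differed. Animals were pooled into 1 library per group, so there are no replicates and no difference was tested. Stage, library, preparation and depth cannot be told apart. Wnt11 was chosen by its pattern of counts in these same libraries, and its levels are therefore a description.

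Wnt11 encodes a secreted Wnt glycoprotein that acts mainly through β-catenin-independent signalling, in which Frizzled receptors and co-receptors such as Ror2 and Ryk control cell polarity and movement. Wnt proteins are lipid-modified and need the carrier Wls to leave the cell, and secreted factors such as the Dickkopf and R-spondin families tune the response of the receiving cell. Wnt11 is best known for convergent extension during gastrulation and for kidney, heart and skeletal development. On mm10 the gene (ENSMUSG00000015957.12) lies on the plus strand of chromosome 7 from 98835112 to 98855195. The panel reads Wnt11 through 1 amplicon, which is named for the polyadenylated end of transcript ENSMUST00000067495.8. That transcript has 7 exons, its 3′ untranslated region runs from 98853285 to 98855195, and it is the only 1 of 6 annotated Wnt11 transcripts that ends there. The isoforms cannot be told apart with this readout.

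The libraries differed in depth. Cells with at least 20 molecules of at least 5 genes were kept, and the median cell held 83.0 panel molecules in E18.5 EC, 97.0 in fetal marrow and 242.0 in adult marrow. Molecules are the pipeline's DBEC-adjusted counts. RSEC-adjusted counts, named as an alternative, are corrected for errors in the molecular tags but keep molecules with few reads, and raw counts have neither correction. Each DBEC-adjusted Wnt11 molecule was supported by 47.9, 12.1 and 10.2 reads. Cell barcodes were shared by 58 cells between the E18.5 libraries, by 38 between E18.5 EC and adult marrow and by 113 between the marrow libraries, and at most 6 of these shared barcodes held Wnt11 in any library. Levels are given per 10000 panel molecules. Ranges in brackets are exact 95% intervals, which cover counting error only, assume independent molecules and leave out differences between cells and animals.

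Wnt11 was found in both marrow libraries and was sparse in the endothelial sort. E18.5 EC held 42 Wnt11 molecules, a level of 0.971 (0.700 to 1.31). Fetal marrow held 1003 molecules, or 5.46 (5.13 to 5.81), and adult marrow held 2070, or 3.28 (3.14 to 3.43). Over whole libraries the E18.5 BM level was 1.66 times the adult level (1.54 to 1.79). The share of cells with a molecule ran the other way, with 4.18% of fetal and 9.35% of adult marrow cells. After each cell was thinned to 50 molecules, the shares were 1.95% (1.69 to 2.23) and 1.47% (1.22 to 1.77), with 2266 fetal cells and 194 adult cells left out as too shallow. For comparison, 0.358% of the 837 osteoclast-like fetal cells, with a median of 279.0 molecules, held a Wnt11 molecule at full depth.

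In the fetal marrow, Wnt11 sat mainly in fibroblast-like stroma. Cells were clustered without any Wnt pathway gene, so the classes were not built on Wnt11. The fibroblast-like class was led by Ptn, Ccn3, Postn and Aspn, the last 3 of which encode matrix-associated proteins of connective tissue. It held 1129 cells, 8.79% of the library, and 783 of the 1003 Wnt11 molecules, a share of 78.1% (75.4 to 80.6). Its Wnt11 level was 26.2 (24.4 to 28.1) against 1.43 (1.25 to 1.63) in all other cells, a ratio of 18.3 (15.7 to 21.4). A molecule was counted in 405 of its cells, or 35.9% (33.1 to 38.7). Of these, 183 cells held 2 or more, and the highest held 8. At 50 molecules per cell the share with Wnt11 was 13.3% (11.4 to 15.4) in this class and 0.613% (0.466 to 0.791) outside it. With raw molecules the ratio was 10.6, and it stayed above 10 under every setting tried.

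In the adult marrow, the level was again highest in fibroblast-like cells, but most molecules lay in other classes. The adult fibroblast-like class was small, with 313 cells led by Ccn3, Aspn, S100a4 and Vcan. It held 510 of 2070 Wnt11 molecules, a share of 24.6% (22.8 to 26.6), at a level of 43.6 (39.9 to 47.6). That was 17.3 times the level in all other adult cells (15.6 to 19.1), a ratio that fell to 7.62 when the 5 most abundant targets were left out of the totals. A molecule was found in 181 of its cells, or 57.8% (52.1 to 63.4), and 124 of these held 2 or more.

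Chondrocyte-like cells, led by Epyc, Scrg1, Panx3 and Col10a1, carried the largest number of adult Wnt11 molecules. The 433 cells held 1141 molecules, 55.1% of the library's Wnt11, and 302 of them (69.7%) had at least 1. These cells were also by far the deepest, with a median of 4012 molecules per cell against 301.0 in the fibroblast-like class. Their level was 6.12 (5.77 to 6.49), and the fibroblast-like level exceeded it 7.12-fold (6.41 to 7.91). Thinned to 50 molecules, 2.77% (1.44 to 4.79) of chondrocyte-like cells kept a Wnt11 molecule, against 19.4% (15.2 to 24.3) of fibroblast-like cells. The 10 chondrocyte-like cells highest in Wnt11 held 20.3% of the molecules of the class, and the highest single cell held 35.

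**Figure D1:**
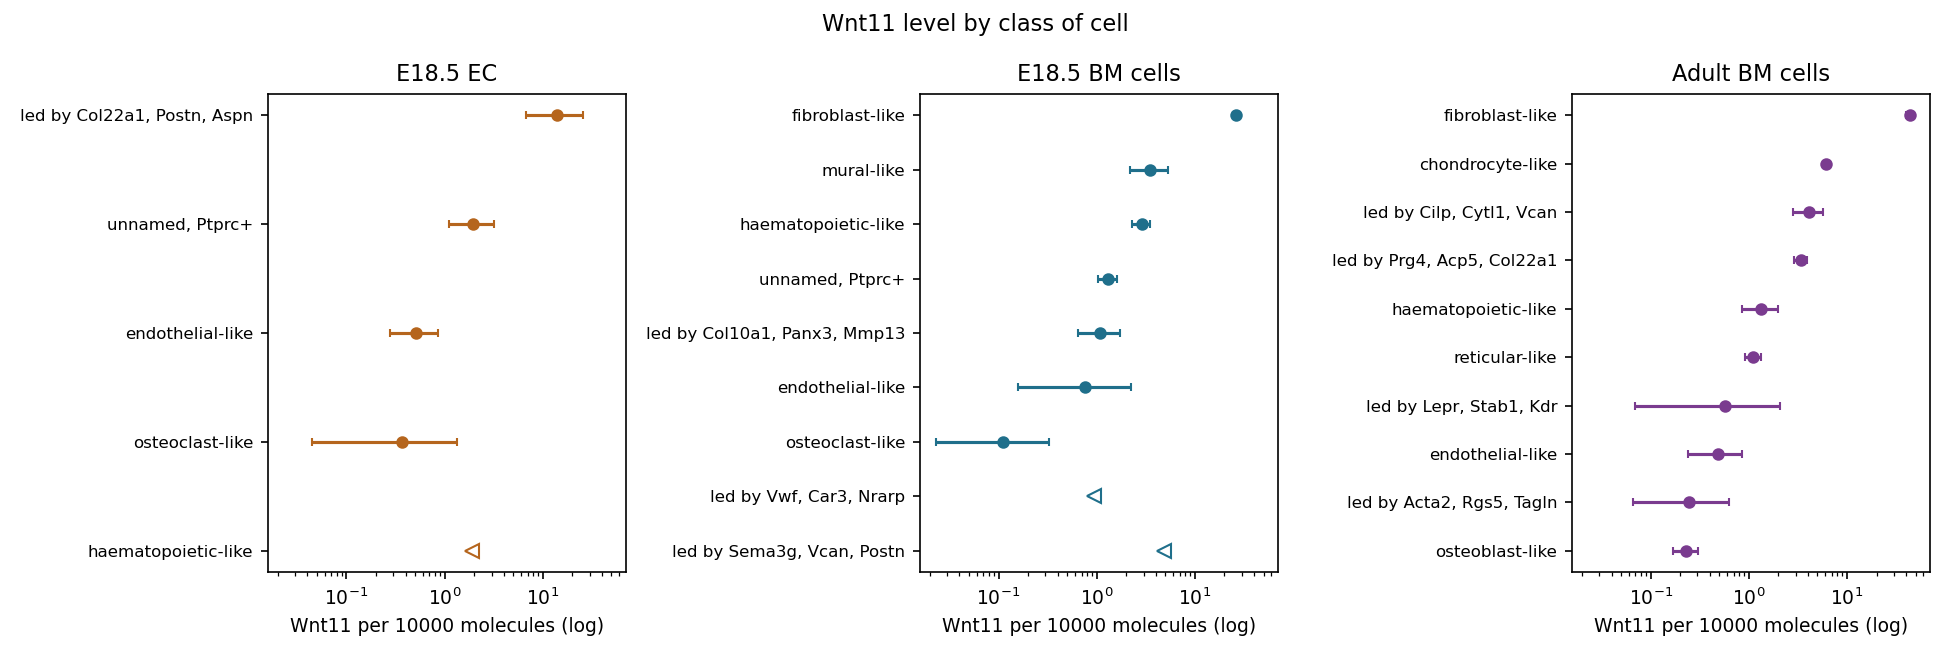
Wnt11 molecules per 10000 panel molecules (log axis) in each class or unnamed cluster of the 3 libraries; points are levels with exact 95% intervals, and open triangles mark classes with 0 molecules at the level that 3 counts would give. Fibroblast-like cells stand at 26.2 in fetal marrow and 43.6 in adult marrow, above every other class of their library.

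The order of levels below the fibroblast-like class differed between the marrow libraries. In fetal marrow, among named classes, mural-like cells (the contractile cells around vessels) followed with 21 molecules at 3.49 (2.16 to 5.34), and haematopoietic-like cells with 91 molecules at 2.86 (2.30 to 3.51). These intervals overlapped. Unnamed clusters with Ptprc (the pan-leukocyte marker CD45) in over 80% of cells stood at 1.30 (1.04 to 1.61), below the haematopoietic-like class, and did not separate from an unnamed cluster led by Col10a1, Panx3 and Mmp13 at 1.08 (0.640 to 1.71) or from endothelial-like cells at 0.758 (0.156 to 2.21). These unnamed clusters ranged from 0.222 (0.0722 to 0.519) to 5.64 (3.16 to 9.30). The highest of them, 457 cells with 15 molecules of which 11 lay in 1 cell, stood above the mural-like value with overlapping intervals. Osteoclast-like cells were lowest among classes with a molecule, with 3 at 0.112 (0.0231 to 0.327). No molecule was counted in a cluster led by Vwf and Car3 or in 51 cells led by Sema3g, Vcan and Postn. A count of 0, taken to allow 3 counts, allows levels of up to 0.930 and 4.85, and the exact 95% upper limits were 1.14 and 5.96. The second of these clusters held Postn at 5703 per 10000, so a high level of Postn was also found without a Wnt11 count.

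In adult marrow, the chondrocyte-like class was followed by a cluster of 42 cells led by Cilp and Cytl1 at 4.09 (2.83 to 5.71) and a cluster of 281 cells led by Prg4, the lubricin gene of joint surfaces, at 3.37 (2.91 to 3.89). The last 2 did not separate from each other. Haematopoietic-like cells at 1.33 (0.860 to 1.96) and Lepr- and Cxcl12-rich reticular-like stroma at 1.11 (0.912 to 1.34) came next and overlapped. The 2300 reticular-like cells held 107 molecules in 97 cells, and the fibroblast-like level was 39.2 times theirs (31.7 to 48.7). Endothelial-like cells stood at 0.480 (0.240 to 0.860), an Acta2- and Rgs5-led cluster at 0.244 (0.0664 to 0.624) and osteoblast-like cells at 0.228 (0.168 to 0.302), with overlapping intervals. The osteoblast-like class joined clusters that differed. In one led by Mmp13 and Mmp9, 495 cells held 35 molecules at 1.21 (0.844 to 1.69), near the reticular-like level, and in one led by Bglap and Bglap2, 310 cells with a median of 5606 panel molecules held 13 at 0.0716 (0.0381 to 0.122). A cluster of 70 cells led by Lepr, Stab1 and Kdr held 2 molecules and overlapped all of these.

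**Figure D2:**
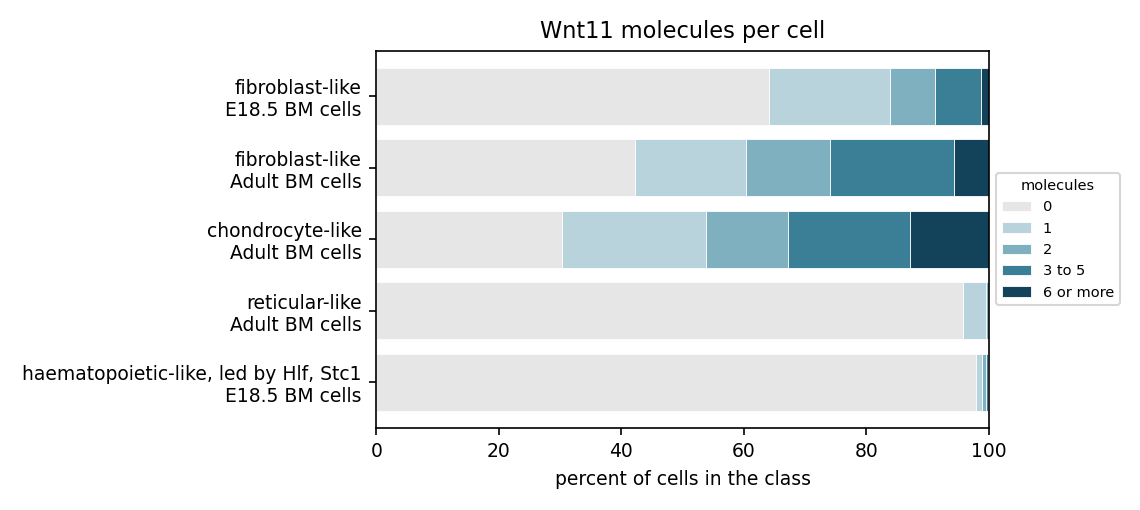
Share of cells (percent) with 0, 1, 2, 3 to 5 or 6 and more Wnt11 molecules in 5 groups of cells, not corrected for depth. Fibroblast-like cells with no Wnt11 molecule number 724 of 1129 at E18.5 and 132 of 313 in the adult, and the chondrocyte-like cells reach the highest counts at a far greater depth.

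Vessels held little Wnt11, and in the endothelial sort the molecules held by endothelial-like cells lay mostly in arterial-like ones. The 3031 endothelial-like cells of E18.5 EC held 14 molecules, a level of 0.512 (0.280 to 0.860). Of these, 10 lay in 8 of 268 arterial-like cells, which were named from genes of arterial endothelium such as Gja4, Sema3g and Hey1. The other 2763 endothelial-like cells held 4 molecules in 4 cells. The levels were 2.66 (1.28 to 4.90) and 0.170 (0.0462 to 0.434), a ratio of 15.7 (4.53 to 68.6) that ranged from 5.75 with RSEC-adjusted molecules to 21.2 without Ptprc-containing cells. With the 10 cells highest in Wnt11 left out it was 8.002 (1.72 to 40.3). Of the arterial-like cells, 2.99% had Wnt11 at full depth and 2.10% (0.686 to 4.83) at 50 molecules, against 0.0978% (0.0118 to 0.353) of the other endothelial-like cells.

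The marrow libraries did not extend this pattern. At E18.5, 1 molecule was counted in 37 arterial-like cells and 2 in 370 others, a ratio of 4.74 (0.0804 to 91.1) that stood at 0.741 with RSEC-adjusted and 0.703 with raw molecules. In the adult, 458 arterial-like cells held 2 molecules and 1197 others held 9, a ratio of 0.401 (0.0422 to 1.94), or 0.542 (0.313 to 0.901) with RSEC-adjusted molecules. The arterial-like level in the fetal sort was 10.9 times that in adult marrow (2.32 to 102.1), from 10 against 2 molecules in differently prepared libraries. Endothelial-like cells as a whole stood at 0.512 in E18.5 EC and 0.480 in adult marrow, a ratio of 1.07 (0.450 to 2.60).

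The remaining molecules of E18.5 EC lay outside the endothelium. A cluster of 24 cells led by Col22a1, Postn and Aspn held 10 molecules in 4 cells, a level of 14.0 (6.72 to 25.8), the highest of that library. Unnamed clusters with Ptprc in over 80% of cells held 16 molecules in 11 cells, and osteoclast-like cells, 99.0% of them with Ptprc, held 2.

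A minor part of fetal Wnt11 was counted in cells that carry Ptprc. Among clusters with Ptprc in over 80% of cells, the most Wnt11 molecules were counted in a haematopoietic-like cluster led by Hlf, Stc1, Mecom and Hey1, of which Hlf and Mecom encode regulators of blood stem cells. Its 1814 cells held 84 molecules in 37 cells, a level of 5.03, while the other haematopoietic-like clusters held 7 molecules, 10.9-fold less (5.04 to 27.8). In these 37 cells Ptprc was seen in 36, and Aspn, Postn or Ccn3 in 11 (29.7%), against 19.5% of the cluster's cells without Wnt11. Their median depth was 79.0 molecules against 82.0, and 20 of them held 2 or more Wnt11 molecules. Just 10 cells held 56.0% of the cluster's Wnt11. For each 1000 Postn molecules this cluster held 161 Wnt11 molecules and the fibroblast-like class 5.96, so the 2 genes did not keep 1 ratio between them. Cells with Wnt11 in this cluster had more S100a4 (ratio 4.36, 4.09 to 4.64) and more Mmp9 (16.6, from 13 molecules) than cells without. S100a4 was also among the leading genes of the adult fibroblast-like class. Postn was higher as well, with a ratio of 2.09 (1.28 to 3.23). The cells with Wnt11 had less Hlf (ratio 0.238, 0.114 to 0.439). No Mecom molecule was counted in them, against 501 in the cells without. Of 66 genes compared in this cluster, 16.7% were at least 2-fold higher and 50% at least 2-fold lower, and the median ratio was 0.495. S100a4, Mmp9, Hlf and Mecom were picked after their values were seen. The part of joined cells in these counts was not tested. Leaving out every cell with Ptprc raised the fibroblast-like share of fetal Wnt11 to 94.1%.

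Cells with Wnt11 in the fetal marrow were rich in the genes of the fibroblast-like class. Levels of other genes were compared between the 537 cells with Wnt11 and the 12307 without, with Wnt11 left out of the totals. Of 103 genes with at least 20 molecules, 31.1% were at least 2-fold higher and 41.7% at least 2-fold lower in cells with Wnt11. Aspn (asporin) stood at 629 against 99.3, a ratio of 6.33 (6.17 to 6.50). Postn (periostin) stood at 3500 against 556, a ratio of 6.29 (6.23 to 6.36). Ccn3, a matricellular regulator, had a ratio of 7.21 (7.03 to 7.39), and the ligand Wnt2 one of 6.32 (5.33 to 7.49). With each cell thinned to 50 molecules other than Wnt11, Aspn was seen in 65.4% of cells with Wnt11 and 7.97% without, and Postn in 81.2% and 15.04%. The corresponding shares were 69.2% and 8.10% for Ccn3 and 4.37% and 0.587% for Wnt2.

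Within the fibroblast-like class at E18.5 these differences were nearly gone. Aspn, Postn and Ccn3 helped to build and name the class, so their closeness within it is partly set by its definition. Wnt2 was left out of the clustering. The ratio between cells with and without Wnt11 was 0.966 (0.940 to 0.992) for Aspn, 0.953 (0.942 to 0.964) for Postn, 1.07 (1.04 to 1.09) for Ccn3 and 0.978 (0.821 to 1.16) for Wnt2. The sides of 1 on which Aspn and Ccn3 fall are small departures, and Aspn stood at 1.002 with RSEC-adjusted and 1.004 with raw molecules. With both of these counts the Wnt2 ratio lay above 1 and above its reported interval. At equal depth Aspn was seen in 84.9% and 84.5% of cells, Postn in 100% and 99.0%, Ccn3 in 85.1% and 84.6% and Wnt2 in 4.21% and 5.36%. Median depths were close, at 245.0 and 236.0 molecules. Of 91 genes, 4.4% were at least 2-fold higher and 7.69% at least 2-fold lower, and none of the 6 Wnt ligands, 8 receptors and 5 secreted modulators with enough molecules was among them.

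The adult fibroblast-like class was less uniform. Cells with Wnt11 had 1.87 times the Aspn level of cells without (1.78 to 1.96), 1.91 times the Ccn3 level (1.82 to 2.001) and 3.04 times the Wnt2 level (2.35 to 3.99), while Postn was lower, with a ratio of 0.621 (0.580 to 0.664). At 50 molecules per cell, Aspn was seen in 79.6% (72.9 to 85.2) of cells with Wnt11 and 61.7% (52.7 to 70.2) without. Ccn3 was seen in 81.8% (75.4 to 87.1) and 50.8% (41.8 to 59.7), and Postn in 10.5% (6.44 to 15.9) and 22.7% (15.7 to 30.9). Wnt2, at 12.2% (7.78 to 17.8) and 5.47% (2.23 to 10.9), had overlapping intervals at that depth. Of 77 genes, 13% were at least 2-fold higher and 19.5% at least 2-fold lower. The 4 mural markers together stood at 227 in cells with Wnt11 and 647 in cells without, and the reticular markers at 85.9 and 41.0. The reticular markers did not share 1 direction. Cxcl12 (66.6 and 18.0) and Kitl (16.7 and 11.8) had higher levels in cells with Wnt11. At equal depth the shares of cells were close, at 11.05% and 10.94% for Cxcl12 and 5.525% and 5.469% for Kitl. The level of Lepr was lower (0.734 and 6.63, ratio 0.111, 0.0337 to 0.286), and that of Cp (2.49 and 4.555) was lower within counting error. The part of mixed cell types in the class was not tested. Across the whole adult library, where chondrocyte-like cells make up much of the Wnt11 group, the ratios were 3.24 for Aspn, 4.91 for Ccn3, 9.51 for Wnt2 and 0.675 for Postn, and with raw molecules these were 1.02, 1.59, 2.75 and 0.435. Of 110 genes there, 24.5% were at least 2-fold higher and 53.6% at least 2-fold lower, at median depths of 1601 and 215.0.

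Outside the fibroblast-like classes, Aspn and Ccn3 levels were higher in fetal cells with Wnt11, while adult Aspn lay near the median ratio of all genes. Among the 11715 other fetal cells, Aspn stood at 77.2 in the 132 cells with Wnt11 and 13.4 in the rest, a ratio of 5.76 (4.96 to 6.67), and Ccn3 had a ratio of 6.53 (5.54 to 7.66). Of 101 genes, 31.7% were at least 2-fold higher and 27.7% at least 2-fold lower. Among the 7626 other adult cells, Aspn had a ratio of 0.302 (0.267 to 0.341) and Postn one of 0.0478 (0.0378 to 0.0596), whereas Ccn3 had one of 1.46 (1.32 to 1.62). The median ratio over all genes compared there was 0.295. Median depths there were 3134 and 213.0. In E18.5 EC, 23.9% of 88 genes were at least 2-fold higher and 36.4% at least 2-fold lower. There Postn stood at 546 in the 29 cells with Wnt11 and 14.7 in the others, a ratio of 37.1 (32.4 to 42.5). It was seen in 13.8% of the cells with Wnt11, with 324 molecules. All 3031 endothelial-like cells held 25 Postn molecules, and the 24 cells led by Col22a1, Postn and Aspn held 892.

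**Figure D3:**
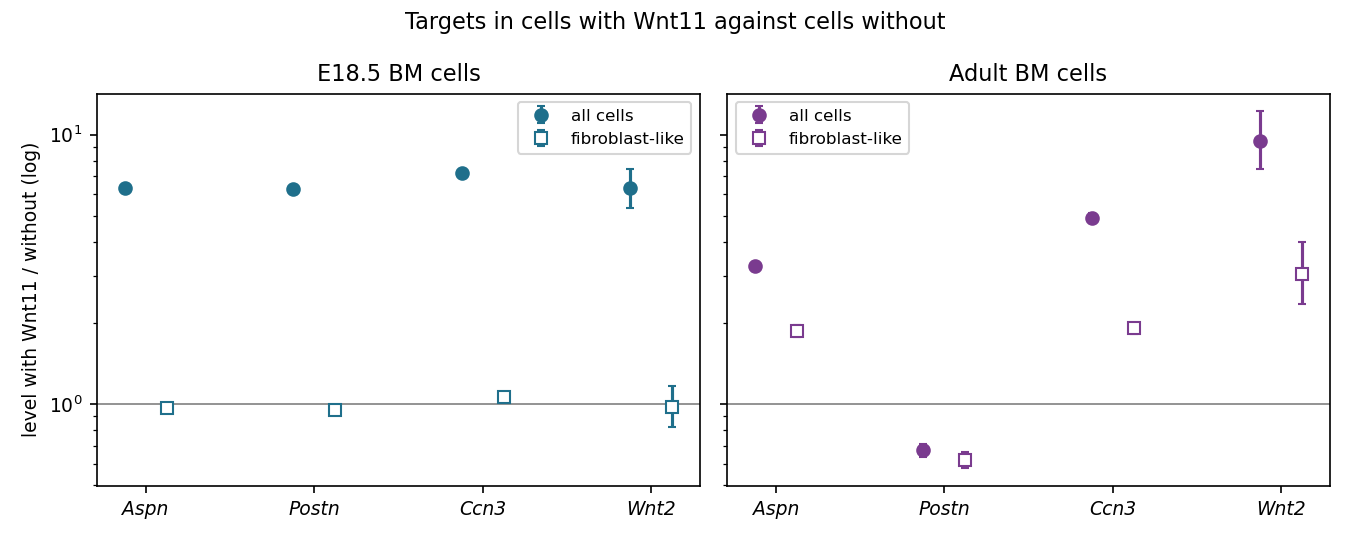
Ratio of the level of Aspn, Postn, Ccn3 and Wnt2 in cells with Wnt11 over cells without (log axis), over all cells (filled circles) and within the fibroblast-like class (open squares), with exact 95% intervals. At E18.5 the ratios of 6.29 to 7.21 over all cells drop to between 0.953 and 1.07 within the class, while in the adult class Aspn, Ccn3 and Wnt2 stay above 1 and Postn below it.

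Among genes with at least 20 molecules in the fetal cells with Wnt11, the 10 with the highest ratio were Ccn3, the modulators Dkk2 (11.6) and Rspo2 (11.03), the cartilage genes Cytl1 (11.5), Prg4 (11.4) and Sox9 (8.49), the niche factors Ptn (9.28) and Cxcl12 (7.35), the fibrillin gene Fbn1 (6.69) and the ligand Wnt5a (7.0). Rspo3, below that minimum with 11 molecules, had a ratio of 15.35 (5.78 to 41.9). Cytl1 and Prg4 rested on few cells, since they were seen in 1.30% and 1.49% of the cells with Wnt11. Within the fibroblast-like class Sox9 kept a ratio of 2.02 (1.53 to 2.66), Dkk2 one of 1.67 (1.31 to 2.11), Rspo2 one of 1.64 (1.41 to 1.91) and Cxcl12 one of 1.49 (1.34 to 1.64). Cytl1 stood there at 1.06 (0.532 to 2.06), and Prg4 turned to 0.280 (0.0966 to 0.669). At equal depth Sox9 was seen in 6.93% of these fetal cells with Wnt11 and 3.67% without, and Dkk2 in 5.45% and 3.53%. Rspo2 was seen in 11.9% and 7.76%, and Cxcl12 in 25.25% and 18.48%. The intervals of each of these pairs overlapped. Ptn separated, at 86.6% (82.9 to 89.8) and 74.3% (70.95 to 77.5), with a ratio of 1.39 (1.34 to 1.44). In the adult class the level of Cxcl12 was 3.70 times higher in cells with Wnt11 (2.93 to 4.71) and that of Fbn1 2.31 times (2.10 to 2.55), whereas Rspo2 stood at 0.882 (0.696 to 1.12). At equal depth Cxcl12 was seen in 11.05% (6.88 to 16.55) of these adult cells with Wnt11 and 10.94% (6.11 to 17.67) without. Fbn1 was seen in 60.2% (52.7 to 67.4) and 30.5% (22.65 to 39.2). The shares therefore differed for Fbn1 and not for Cxcl12. The 5 lowest genes in fetal cells with Wnt11 were Vwf (0.0637) and Stab1 (0.0893) of endothelium, Lef1 (0.0837), the Wnt-responsive transcription factor, and Atp6v0d2 (0.103) and Acp5 (0.109) of osteoclasts.

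Other genes of the Wnt pathway were counted by listed group. In the whole E18.5 marrow, 6 of the 8 other Wnt ligands with enough molecules were at least 2-fold higher in cells with Wnt11 (Wnt2, Wnt4, Wnt5a, Wnt5b, Wnt9a and Wnt10b), and Wnt6 and Wnt10a at least 2-fold lower, beside 31.1% higher and 41.7% lower of all genes. Of 8 receptors, 3 were higher and 1 lower, and of 7 secreted modulators 5 were higher. Of 9 intracellular components and targets, none was higher and 6 were lower. Wls, the only secretion gene measured, had a ratio of 1.69. In the adult fibroblast-like class, 3 of 5 other ligands were at least 2-fold higher in cells with Wnt11, beside 13% of all genes. They were Wnt10b (4.86, 2.19 to 12.7), Wnt2 and Wnt9a (2.16, 1.72 to 2.73). At equal depth Wnt10b was seen in 2.76% (0.903 to 6.33) of cells with Wnt11 and 2.34% (0.486 to 6.70) without. Wnt9a was seen in 20.99% (15.3 to 27.7) and 10.2% (5.52 to 16.7). As for Wnt2, the intervals of each pair overlapped at that depth.

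Some fetal stromal cells held both Wnt11 and Wnt2. In the E18.5 fibroblast-like class 70 cells held both, so 41.4% (33.9 to 49.2) of its 169 Wnt2 cells also had Wnt11, against 34.9% (31.9 to 38.01) of cells without Wnt2. At 50 molecules per cell these shares were 13.1% (5.84 to 24.2) and 12.4% (10.5 to 14.6), at 100 molecules 13.1% (7.18 to 21.4) and 21.6% (19.04 to 24.4), so the order of the shares changed with depth. With raw molecules 3.45% of the Wnt2 cells had Wnt11 at 50 molecules. In the adult class 77 of 102 Wnt2 cells held Wnt11, or 75.5% (66.0 to 83.5), against 49.3% (42.4 to 56.2) of cells without Wnt2. At 50 molecules they were 37.1% (21.5 to 55.1) and 20.8% (16.1 to 26.1), with overlapping intervals, and at 100 molecules 34.5% and 33.5%. In E18.5 EC none of 86 Wnt2 cells held Wnt11, which allows a share of up to 3.49% at 3 counts (exact 95% upper limit 4.20%), and 0.734% of its other cells did.

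Wnt11 was the ligand with the most molecules in the fibroblast-like class at both stages. At E18.5 its level of 26.2 was followed by Wnt9a at 22.5 (20.8 to 24.3), Wnt2 at 19.2 (17.7 to 20.9), Wnt5a at 10.5 (9.38 to 11.7) and Wnt5b at 6.46 (5.58 to 7.44). In the adult its 43.6 was followed by Wnt9a at 35.0 (31.7 to 38.5), Wnt2 at 32.6 (29.4 to 36.01) and Wnt10b at 4.70 (3.54 to 6.12), with Wnt5a at 1.62 (0.978 to 2.54). Each ligand was read by its own amplicon, so this is an order of counted molecules and not of transcript abundance. Over the whole library Wnt11 ranked 1 among 16 detected ligands in fetal marrow, 3 among 15 in adult marrow, below Wnt4 and Wnt5b, and 4 among 12 in E18.5 EC.

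**Figure D4:**
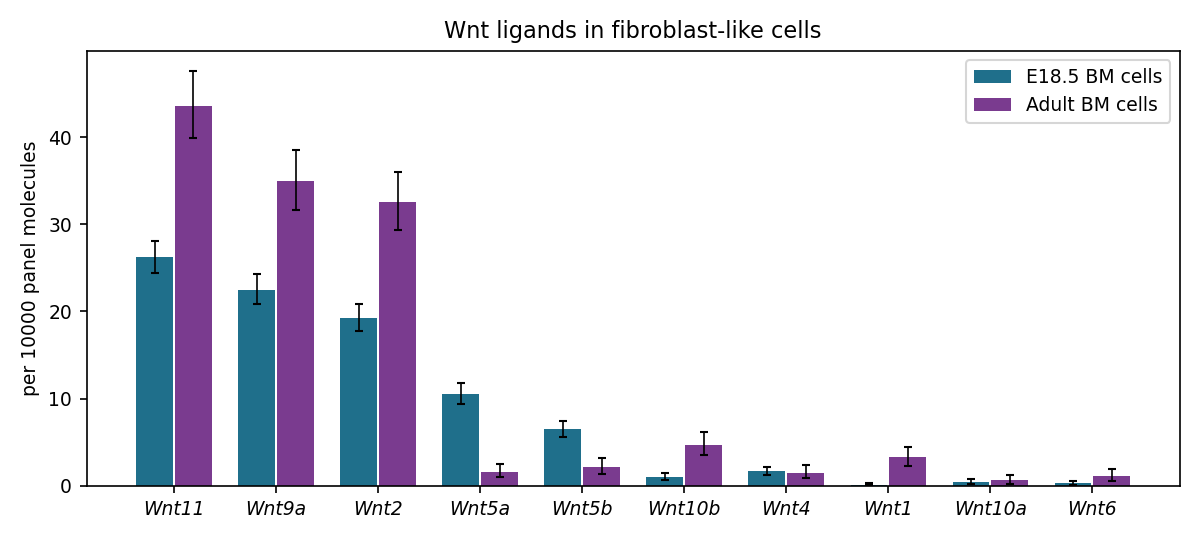
Levels of 10 Wnt ligands in fibroblast-like cells of fetal marrow and adult marrow, in molecules per 10000 panel molecules, as bars with exact 95% intervals. Wnt11, Wnt9a and Wnt2 are the 3 highest at both stages, and Wnt5a and Wnt5b stand higher at E18.5.

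The fetal to adult contrast of Wnt11 within fibroblast-like cells depended on the totals. The level was 26.2 at E18.5 and 43.6 in the adult, a ratio of 0.601 (0.537 to 0.673), so per panel molecule Wnt11 was not a fetal-enriched gene in this class. However, Postn alone made up 44.0% of the fetal class's molecules and 2.93% of the adult's, and S100a4 held 0.983% and 24.97%. With Postn left out of the totals the ratio was 1.04 (0.930 to 1.17), and without the 5 most abundant targets of each library 1.11 (0.989 to 1.24). With the same 7 abundant targets left out of both totals it was 0.651 (0.582 to 0.730). For each 1000 Aspn and Ccn3 molecules together, the fetal class held 15.9 Wnt11 molecules and the adult class 29.5. Per cell it held 0.693 and 1.63 molecules, at a mean depth of 265 and 374. A higher adult level was therefore found with the full totals and with the same 7 targets left out. It was not found with Postn or the 5 most abundant targets of each library left out. No total gave a higher fetal level beyond counting error. Blood and endothelial markers in the class were Ptprc in 16.7% of fetal and 2.88% of adult cells and Pecam1 in 9.65% and 8.95%, and without Ptprc-containing cells the ratio was 0.660.

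**Figure D5:**
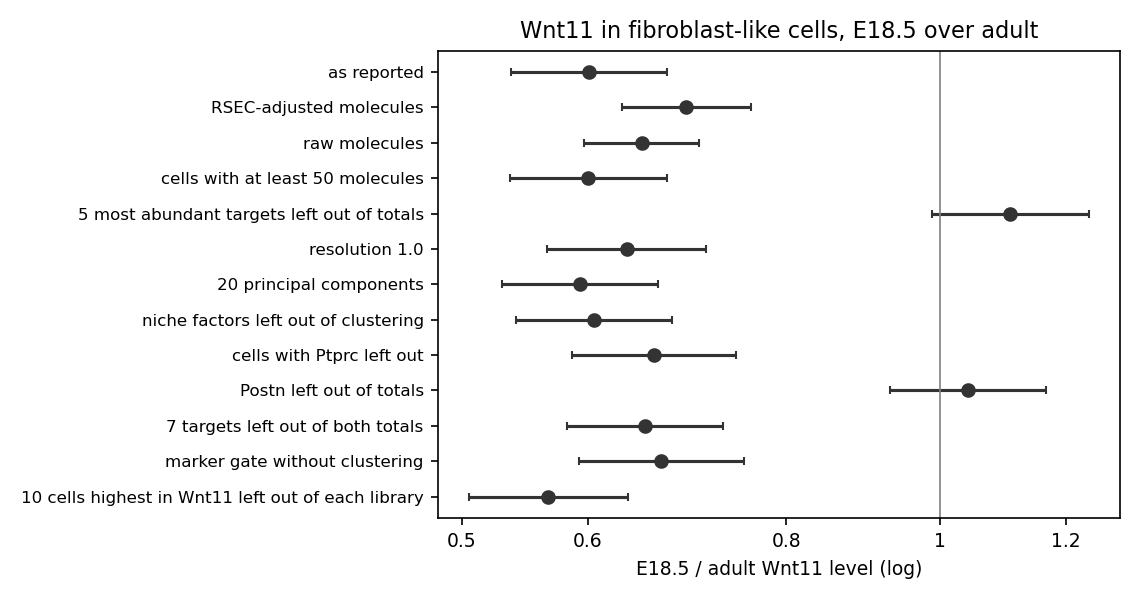
Ratio of the Wnt11 level in fibroblast-like cells, fetal over adult marrow (log axis), as reported and under 12 other settings, with exact 95% intervals and a line at 1. The ratio is between 0.566 and 0.692 in all but the settings that leave out Postn or the 5 most abundant targets of each library, at 1.04 and 1.11.

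Other genes moved between the fetal and adult fibroblast-like classes at the same time. Of 102 genes other than Wnt11, 36.3% were at least 2-fold higher at E18.5 and 28.4% at least 2-fold lower, so Wnt11 lay inside that spread. The ligands Wnt2 (0.591) and Wnt9a (0.643) had ratios close to that of Wnt11. Wnt5a (6.47, 4.07 to 10.9) and Wnt5b (3.02, 1.99 to 4.79) were higher at E18.5, and Wnt1, Wnt6 and Wnt10b at least 2-fold lower. Of 8 Frizzled receptors, 5 were at least 2-fold higher at E18.5 (Fzd2, Fzd3, Fzd5, Fzd7 and Fzd8) and none lower, and their median ratio was 2.72 against 1.19 over all genes. The carrier Wls had a ratio of 0.855 (0.808 to 0.905). All of these ratios share the totals described for Wnt11.

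Across the 39 clusters with at least 5000 molecules, the genes whose level ran most closely with Wnt11 by Spearman correlation were Rspo4 (0.51), Sox9 (0.51), Mgp (0.50), Vcan (0.49), Sgms2 (0.48) and Acan (0.46), out of 112 genes. Clusters of a library share its depth and preparation, and the correlations are a description. In the 15 adult clusters Sox9 reached 0.83 and Rspo4 0.80, and in the 14 clusters of fetal marrow they stood at 0.10 and 0.45.

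Within adult chondrocyte-like cells Wnt11 ran with Panx3, a channel gene of hypertrophic cartilage and bone. The 216 cells with the higher share of Panx3 held 805 Wnt11 molecules at a level of 7.94, and the other 217 held 336 at 3.95, a ratio of 2.01 (1.77 to 2.29). Their median depths were 4686 and 3578. In the 109 cells with any Col10a1, a collagen of hypertrophic chondrocytes, Wnt11 stood at 4.67 against 6.83 in the cells without, a ratio of 0.684 (0.596 to 0.782), at median depths of 5376 and 3760. Compared as cells with and without Wnt11, Mmp13 (0.120, 0.110 to 0.130) and Spp1 (0.231, 0.226 to 0.235) were lower in the 302 cells with Wnt11, and Sgms2 was higher (3.10, 2.74 to 3.53). Split by Mmp13 instead, the 48 cells with any Mmp13 had the higher Wnt11 level, 7.35 against 5.96 in the other 385, a ratio of 1.23 (1.04 to 1.46), so the comparisons for Mmp13 did not give 1 direction. The 216 cells with the higher share of Col2a1, the main collagen of cartilage, stood at 7.28 against 4.99 (1.46, 1.29 to 1.64). Of 83 genes in this comparison 12% were at least 2-fold higher and 6.02% at least 2-fold lower. These 6 genes were picked after their values were seen.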

How the data were processed

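Targeted single-cell libraries were made on BD Rhapsody and processed, per the file headers, with the BD Targeted Rhapsody Analysis Pipeline Version 1.8. The deposited values are counts of molecules per cell and amplicon, which the authors obtained as raw, RSEC-adjusted and DBEC-adjusted numbers. DBEC-adjusted counts were used. DBEC drops molecules with few reads and kept 31.1%, 49.7% and 38.4% of raw Wnt11 molecules in E18.5 EC, fetal marrow and adult marrow. The labels name mm10, on which gene positions are given. The filter of 20 molecules and 5 targets removed 5, 40 and 9 cells.

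Each library was clustered separately on log-scaled levels (11 principal components, 20 neighbours, Leiden resolution 0.5, igraph 0.11.9) with Wnt pathway and cell cycle genes left out. A cluster was named from at least 3 listed markers, and clusters without a clear lead stayed unnamed (14.1%, 53.9% and 8.86% of cells). Doublets were not called, and cells with Ptprc were left out as an alternative. Levels have exact Poisson intervals, shares Clopper-Pearson intervals and ratios exact conditional binomial intervals (scipy 1.17.1). Thinning drew molecules without replacement. On simulated fetal marrow with independently drawn molecules, 95.1% of 102 intervals held the true ratio. The simulation lacked the clumping of molecules in few cells found in the data, so it does not give the coverage for real counts. Genes were named as Wnt11, the 4 genes given with it, the Wnt lists, the 10 highest and 5 lowest ratios in fetal marrow (at least 20 molecules in cells with Wnt11 or, for the lowest, 20 expected there) and the 6 most alike across clusters; further names are marked where given. The gene, the lists and the comparisons were chosen with earlier results of these data known. The alternatives were other molecule counts, cell filters, totals, cluster settings and thinning depths.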

Additional observations from a re-analysis of the deposited data

How the results depend on the processing

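Each of 30 values was recomputed, giving 203 values under alternatives, of which 117 lay within the reported interval. No paired analysis was possible because each group has 1 library; for the same reason no replicate could be left out and no test was made. The endothelial-like values rest on at most 14 Wnt11 molecules per library.

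With RSEC-adjusted molecules the library levels were 5.87 (fetal marrow) and 4.42 (adult marrow), a ratio of 1.33. The fibroblast-like share was 64.7% and 17.0%, its ratio to other cells 10.2 and 9.63, and the E18.5 to adult ratio 0.692. For cells with Wnt11 over cells without, Aspn stood at 4.22 (E18.5) and 1.22 (adult), Postn at 4.005 and 0.582, Ccn3 at 4.72 and 1.78 and adult Wnt2 at 2.85. Within the E18.5 class Aspn turned to 1.002, Ccn3 was 1.12 and Wnt2 1.43, and within the adult class Aspn was 1.64 and Postn 0.783.

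With raw molecules the library levels were 0.662, 4.57 and 3.07, the ratio 1.49, the shares 67.2% and 18.0% and the ratios to other cells 10.6 and 11.4. Over all cells Aspn was 4.16 and 1.02, Postn 4.12 and 0.435, Ccn3 4.85 and 1.59 and Wnt2 5.26 and 2.75. Within the E18.5 class Aspn turned to 1.004, Ccn3 was 1.12, Wnt2 1.34 and the thinned share of Wnt2 cells with Wnt11 3.45%, and within the adult class Aspn was 1.60 and Postn 0.809.

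With the 5 most abundant targets left out of totals the levels were 1.87, 10.3 and 7.51, the library ratio 1.37, the adult fibroblast-like ratio to other cells 7.62, and the E18.5 to adult ratio in fibroblast-like cells turned to 1.11. Over all cells Aspn was 6.17 and 2.91, Postn 6.13 and 0.606 and Ccn3 7.02 and 4.41, and within the E18.5 class Aspn was 0.934, Postn 0.922 and Ccn3 1.03. With at least 50 molecules per cell, E18.5 Aspn was 6.06, Postn 6.04 and Ccn3 6.91. At resolution 1.0 the E18.5 share was 71.8% and its ratio to other cells 15.4. Without Ptprc-containing cells the E18.5 share was 94.1%. Without cells holding Ptprc or Pecam1, E18.5 Aspn was 1.87, Postn 1.91, Ccn3 2.12 and Wnt2 2.07 over all cells and Aspn 0.939 and Ccn3 1.03 within the class; adult Aspn was 3.77 and Ccn3 5.24 over all cells and Postn 0.704 and Ccn3 2.10 within the class.

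The following were added after seeing the data. With Postn left out of totals the E18.5 ratio to other cells was 32.5 and the E18.5 to adult ratio turned to 1.04. With the same 7 abundant targets left out, the ratios to other cells were 53.3 and 46.1. With a marker gate (no Ptprc, and at least 5% of molecules from Aspn, Postn and Ccn3) in place of clusters, the shares were 68.9% and 22.5% and the ratios 12.2 and 14.2. Without the 10 cells highest in Wnt11 the levels were 0.441, 5.03 and 2.95, the adult share 27.8% and its ratio 20.1. Apart from changes that follow from the totals or cells left out, the cause was not tested. A second thinning seed, 20 principal components and leaving niche factors out of clustering moved no value outside its interval.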

Other observations

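In the adult Prg4-led cluster, cell cycle genes had higher levels in cells with Wnt11 than without, from few cells. Among its 281 cells, the 83 with Wnt11 had Top2a at 56.7 times (18.9 to 278.6), Mki67 at 36.4 times (12.0 to 180.2) and Cdk1 at 20.6 times (9.66 to 52.6) the level of the other 198. Each of the 3 genes was seen in 9.64% of the cells with Wnt11, and in 1.52%, 1.01% and 3.03% of the others. At 50 molecules per cell Top2a was seen in 1.205% (0.0305 to 6.53) and 0% (0 to 1.85), with overlapping intervals. Their median depth was 2496 molecules against 1144, and its part in these ratios was not tested. Of 72 genes compared, 12.5% were at least 2-fold higher and 20.8% at least 2-fold lower. Wnt2 was also higher in these cells, with 22 molecules, seen in 8.43% of them, and a ratio of 31.2 (5.04 to 1286). In the adult fibroblast-like class Mki67 had a ratio of 5.67 (2.01 to 22.1) and Top2a of 3.26 (1.62 to 7.24). These genes were picked after their values were seen.

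The error correction removed many Wnt11 records. In adult marrow 1536 cells held Wnt11 among RSEC-adjusted molecules, and 794 of these had none after DBEC. The corresponding numbers were 964 and 427 in fetal marrow and 63 and 34 in E18.5 EC.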
